A study of Mus musculus with 8 samples.

Results

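The 34 genes described here were those for cholesterol and fatty acid synthesis, with their regulators, chosen by symbol from the 55450 genes of the count table. All 34 were found, and all passed the filter on low counts. They comprise 17 sterol synthesis enzymes, 2 sterol transport genes (Stard4 and Npc1), 5 regulators of the SREBP transcription factors (Insig1, Insig2, Srebf1, Srebf2 and Scap) and 10 genes of the fatty acid arm. They are a chosen list and do not hold every gene of either pathway.

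Sterol regulatory element-binding proteins (SREBPs) are transcription factors made as membrane-bound precursors in the endoplasmic reticulum. When sterols are scarce, the escort protein SCAP carries the precursors to the Golgi, where they are cut and released to the nucleus. When sterols are plentiful, the INSIG proteins hold SCAP in the endoplasmic reticulum. SREBP-2, made from Srebf2, acts mainly on sterol genes, and SREBP-1c, made from Srebf1, mainly on fatty acid genes. Macrophages take up large amounts of cholesterol from lipoproteins and dying cells, store it as esters and export it.

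The cells were RAW264.7, a macrophage-like line from mouse, and total RNA was sequenced in 8 libraries. The shDis3l2 cells carried an shRNA against Dis3l2, an exoribonuclease that degrades uridine-tailed RNAs, and the shNS cells carried a non-silencing shRNA. Each line was grown for 4 days with 1 µg/mL doxycycline (3 libraries of shDis3l2, 3 of shNS) or without it (1 library of shDis3l2, 1 of shNS). Doxycycline is widely used to induce an shRNA, and the labels do not name the promoter of this one. The labels do not say whether a line is 1 clone or a pool, nor that the replicates were separate cultures. A p-value here therefore sets the difference between groups only against the spread of these libraries, and that spread may be technical. All levels are given as CPM, the count scaled to a common library total, with library sizes adjusted by the trimmed mean of M-values (TMM).

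Library totals lay between 30341823 and 45557804 counts. Dis3l2 averaged 13.5 ± 1.46 CPM in shDis3l2 libraries with doxycycline and 27.9 ± 5.54 CPM in shNS libraries with doxycycline (SD, n = 3 each), a log2 fold change of -1.05 (SE 0.19, adjusted p = 0.0216, edgeR quasi-likelihood test). The adjusted p was 0.0814, 0.112 and 0.0776 in edgeR without replicate 1, 2 or 3 of shDis3l2. Without doxycycline Dis3l2 stood at 28.6 CPM in shDis3l2 and 29.7 CPM in shNS. All 8 macrophage markers were above 1 CPM in at least 1 library, with sums of 6322 to 8742 CPM in shDis3l2 and 7417 to 11105 CPM in shNS with doxycycline, and the summed level of each of the fibroblast, epithelial, endothelial, lymphoid and adipocyte or hepatocyte lists was at most 1.24 CPM in every library. The macrophage markers did not move together: Adgre1 had 10.7, 7.09 and 25.9 CPM in shDis3l2 and 121, 63.0 and 99.2 CPM in shNS with doxycycline, while Csf1r had 2236, 2230 and 2168 CPM in shDis3l2 and 1297, 1494 and 1844 CPM in shNS. Their part in the results below was not tested. In bulk RNA, fewer cells of a type and less RNA per cell cannot be told apart. Replicate 2 of shNS with doxycycline stood apart from its group: its profile correlated at 0.991 with untreated shNS and at 0.961 and 0.964 with shNS replicates 1 and 3, across 13752 genes that are not independent. Among shDis3l2 libraries with doxycycline, replicates 2 and 3 correlated at 0.996 with each other, and replicate 1 at 0.986 and 0.984 with them. With untreated shDis3l2, replicates 1, 2 and 3 correlated at 0.978, 0.991 and 0.989. For some members whose values turned on shNS replicate 2, or on replicate 1 of either line, fold changes without that library are also given.

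Promoters of 5 members are shown because the sterol and fatty acid arms differed in the motifs they held. A window of 250 bases upstream of the RefSeq start site (GRCm38.p6) was found for 26 of the 34 members. Fdps, Fdft1, Sqle, Stard4, Npc1, Scd1, Scd2 and Fads1 had no entry in the table used. Hmgcs1, the cytosolic HMG-CoA synthase, has its window at chr13:119690101-119690350 on the plus strand. The window of Msmo1, a methylsterol monooxygenase, is at chr8:64733579-64733828 on the minus strand. That of Cyp51, the lanosterol demethylase, is at chr5:4104698-4104947 on the minus strand. Insig1 has its window at chr5:28071162-28071411 on the plus strand, and that of Fasn, the fatty acid synthase, is at chr11:120824548-120824797 on the minus strand. The windows of Msmo1, Cyp51 and Insig1 partly lie inside the gene as GENCODE draws it. Each is printed in the direction of the gene, with capitals marking matches on either strand to CCAAT (the NF-Y box, ATTGG on the other strand), GGGCGG (the Sp1 box, CCGCCC on the other strand), TCACNCCAC (a core of the sterol regulatory element) or CACGTG (an E-box).
Hmgcs1: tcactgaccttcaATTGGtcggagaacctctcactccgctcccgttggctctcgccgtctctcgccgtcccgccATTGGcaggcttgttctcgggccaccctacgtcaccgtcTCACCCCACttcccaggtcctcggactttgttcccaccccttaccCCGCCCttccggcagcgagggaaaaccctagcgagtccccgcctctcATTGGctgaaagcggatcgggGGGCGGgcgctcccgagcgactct
Msmo1: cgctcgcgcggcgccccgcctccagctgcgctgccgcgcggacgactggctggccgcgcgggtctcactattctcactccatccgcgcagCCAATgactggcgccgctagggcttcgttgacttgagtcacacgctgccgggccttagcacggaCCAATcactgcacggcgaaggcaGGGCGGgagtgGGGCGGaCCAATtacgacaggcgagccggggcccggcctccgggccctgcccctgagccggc
Cyp51: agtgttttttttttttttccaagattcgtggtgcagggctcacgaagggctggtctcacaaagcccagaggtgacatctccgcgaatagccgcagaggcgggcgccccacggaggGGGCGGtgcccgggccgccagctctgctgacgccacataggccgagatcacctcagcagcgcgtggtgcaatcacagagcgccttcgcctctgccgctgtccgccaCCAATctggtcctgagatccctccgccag
Insig1: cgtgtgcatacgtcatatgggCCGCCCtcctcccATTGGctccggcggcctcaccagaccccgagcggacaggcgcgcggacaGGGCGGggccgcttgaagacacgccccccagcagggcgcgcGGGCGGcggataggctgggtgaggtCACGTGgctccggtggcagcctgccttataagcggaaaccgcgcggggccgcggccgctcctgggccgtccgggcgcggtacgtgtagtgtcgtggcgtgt
Fasn: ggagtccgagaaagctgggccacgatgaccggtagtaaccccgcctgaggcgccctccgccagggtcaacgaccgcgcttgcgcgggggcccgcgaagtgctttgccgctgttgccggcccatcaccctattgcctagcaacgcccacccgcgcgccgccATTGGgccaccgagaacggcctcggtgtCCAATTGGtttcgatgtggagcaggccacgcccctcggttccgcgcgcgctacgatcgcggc

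CCAAT was found in the windows of 13 of 14 sterol enzymes (92.9%), 4 of 5 regulators and 2 of 7 fatty acid genes (28.6%), against 37.5% of the 27025 genes in the table. Acat2, the cytosolic acetoacetyl-CoA thiolase, was the sterol enzyme without it. The 2 fatty acid genes with CCAAT were Acss2 and Fasn. The printed window of Fasn held 3 matches to it, as many as that of Hmgcs1, and so does not stand for its arm. GGGCGG was found in 13 of 14 sterol enzymes, 5 of 5 regulators and 3 of 7 fatty acid genes (42.9%), against 35.4% of all genes. Pmvk, phosphomevalonate kinase, was the sterol enzyme without it. TCACNCCAC was found in Hmgcs1 alone among the 26 members, where 1.22% of all genes held it. CACGTG was found in Hsd17b7, Dhcr7, Insig1 and Scap, and in 6.86% of all genes. None of these matches overlapped a match to another of the 4 motifs in the 5 printed windows, although the palindromic CCAATTGG of Fasn holds CCAAT on both strands. The windows were not matched for base composition, and a match is a run of letters, not a site shown to be bound.

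Under doxycycline, none of the 34 members passed the threshold of adjusted p under 0.05 between shDis3l2 and shNS (edgeR quasi-likelihood test), where 6.14% of the 13752 genes tested did (2.13% higher and 4.01% lower). At an unadjusted p under 0.05 there were 5 members (Npc1, Scap, Acss2, Hmgcs1 and Lpin1), against 20.8% of all genes. DESeq2 called these 5, with 12.7% of all genes called, and limma-voom called 0 members, with 6.25%. Members called were also 0 with no low-count filter (3.95% of all genes called), at 1 CPM or more in 3 libraries (6.29%), in the fit of all 8 libraries as 4 groups (4.87%), without shDis3l2 replicate 2 (1.44%) or 3 (1.83%), and without shNS replicate 1 (8.24%) or 3 (5.57%). The signs were uneven: 28 of 34 members had a negative log2 fold change, against 50.3% of all genes, and their median was -0.35, against -0.0023 over all genes. By role, the log2 fold change was negative for 17 of 17 sterol enzymes (median -0.44), 2 of 2 transport genes, 1 of 5 regulators (median 0.065) and 8 of 10 fatty acid genes (median -0.29). The count of negative sterol enzymes was 16 with libraries scaled by total alone, 15 with no low-count filter and between 10 and 17 when 1 library was left out.

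**Figure D1:**
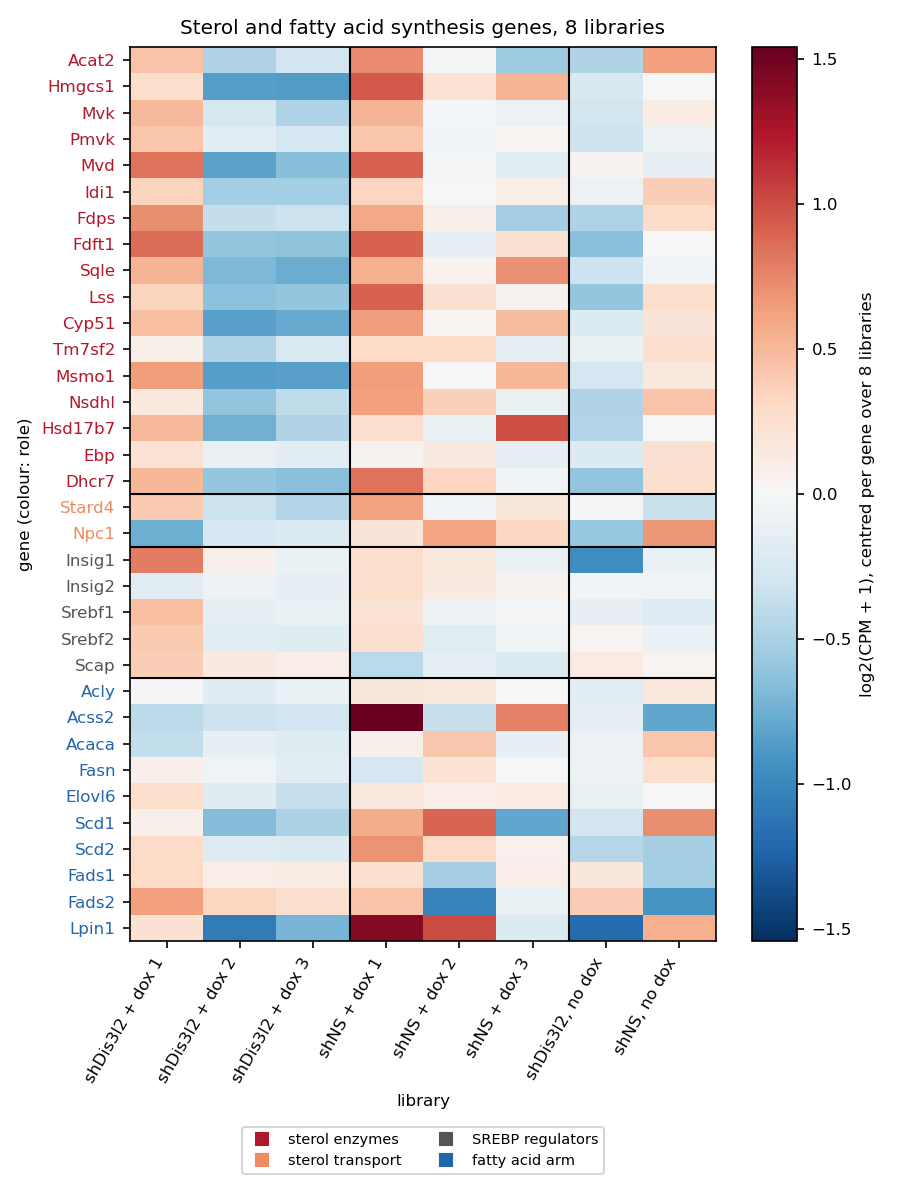
Level of each of the 34 members (rows, coloured by role) in each of the 8 libraries (columns), as log2(CPM + 1) minus the gene's mean over the libraries. Replicate 1 of shDis3l2 with doxycycline is red for most sterol enzymes, while replicates 2 and 3 are blue, and replicate 1 of shNS with doxycycline is the reddest of its group for 14 of 17 of them.

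Among sterol enzymes, length-scaled levels ran from 1.01 CPM per kilobase for Tm7sf2, a sterol reductase, to 27.8 CPM per kilobase for Fdps, the farnesyl diphosphate synthase, as means over the 8 libraries. Hmgcs1 (chr13:119690379-119708260) had the most negative fold change of the enzymes. It stood at 82.4, 37.1 and 36.8 CPM in replicates 1, 2 and 3 of shDis3l2 with doxycycline, against 132, 79.0 and 98.1 CPM in replicates 1, 2 and 3 of shNS with doxycycline. The untreated libraries had 57.1 CPM in shDis3l2 and 67.8 CPM in shNS. Replicate 1 was the highest in both lines, and replicate 1 of shDis3l2 lay above replicate 2 of shNS, so the groups overlapped. The log2 fold change was -0.98 (SE 0.36, adjusted p = 0.185, edgeR quasi-likelihood test). At the other end, Fdps (chr3:89093588-89101959) had 184, 85.9 and 87.9 CPM in shDis3l2 libraries and 168, 118 and 76.9 CPM in shNS libraries, a log2 fold change of -0.024 (SE 0.39).

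In shDis3l2, the same split of replicate 1 from the others ran through later steps. Cyp51 had 77.8, 30.8 and 32.2 CPM in shDis3l2 libraries with doxycycline, against 88.2, 57.3 and 79.3 CPM in shNS libraries with doxycycline (log2 fold change -0.67, SE 0.39). Lss, the lanosterol synthase, had 56.9, 28.5 and 29.3 CPM in shDis3l2 libraries, against 84.6, 52.9 and 46.6 CPM in shNS libraries (log2 fold change -0.68, SE 0.35). In both genes, replicates 2 and 3 of shDis3l2 were below every shNS library, and replicate 1 was not. Msmo1, named after its values were seen, had 97.7, 34.1 and 34.5 CPM in shDis3l2 libraries and 98.2, 62.2 and 88.9 CPM in shNS libraries. In Sqle, the squalene epoxidase, shNS replicate 3 was the highest of its group instead, with 107, 45.2 and 43.0 CPM in shDis3l2 libraries and 109, 76.6 and 121 CPM in shNS libraries. The remaining enzymes had log2 fold changes from -0.61 to -0.028. They were the thiolase Acat2 (-0.20), mevalonate kinase Mvk (-0.19), phosphomevalonate kinase Pmvk (-0.14), the decarboxylase Mvd (-0.34), the isopentenyl diphosphate isomerase Idi1 (-0.32), squalene synthase Fdft1 (-0.36), Tm7sf2 (-0.44), and the late-step enzymes Nsdhl (-0.59), Hsd17b7 (-0.61), Ebp (-0.028) and Dhcr7 (-0.57). None of these had an adjusted p under 0.05 in edgeR, and in each the groups overlapped.

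**Figure D2:**
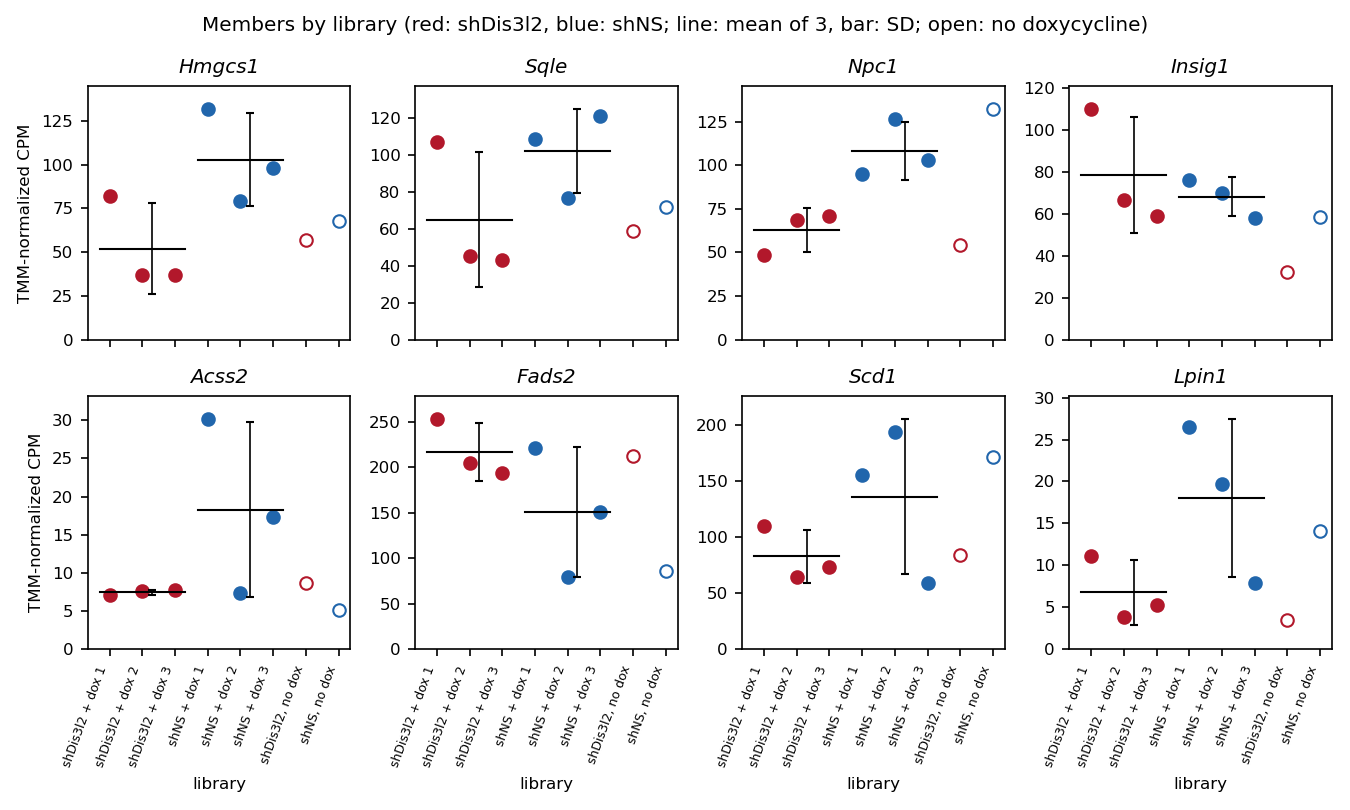
CPM of selected members in each library, with shDis3l2 (red) left of shNS (blue), filled points for doxycycline and open points for untreated cells, lines at the means of 3 libraries and bars of 1 SD. Hmgcs1 shows 1 shDis3l2 library at 82.4 CPM above the 2 others near 37 CPM, and Npc1 shows no overlap between the doxycycline groups.

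Replicate 1 was the highest shDis3l2 library with doxycycline for 17 of 17 sterol enzymes, and the highest shNS library with doxycycline for 14 of 17, the exceptions being Sqle, Hsd17b7 and Ebp. Over all genes it was the highest for 46.8% in shDis3l2 and 35.4% in shNS, and the highest in both lines for 13.4%, against 14 of 17 sterol enzymes. It exceeded both other replicates at least 1.5-fold for 14 of 17 sterol enzymes in shDis3l2, against 6.31% of all genes, and for 5 of 17 in shNS, against 8.83%. The 5 were Acat2, Mvk, Mvd, Fdft1 and Lss, and they met this mark in both lines, where 0.676% of all genes did. The ratio of replicate 1 to the mean of replicates 2 and 3 had a median of 2.11 over sterol enzymes in shDis3l2 (highest 3.13) and of 1.41 in shNS (highest 2.06). Over the fatty acid genes the medians were 1.21 in shDis3l2 and 1.28 in shNS, and over all genes 1.02 in shDis3l2 and 0.98 in shNS. Mvd, mevalonate diphosphate decarboxylase, had the widest split, at 40.1, 12.0 and 13.7 CPM in shDis3l2 and 42.2, 21.5 and 19.5 CPM in shNS. Replicate 1 was the deepest library in shDis3l2 (45557804 counts) and the shallowest in shNS (30341823 counts), and the part of depth in this pattern was not tested.

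Replicate 1 of shDis3l2 lay below all 3 shNS libraries with doxycycline for 0 of 17 sterol enzymes, against 30.7% of all genes. Replicates 2 and 3 of shDis3l2 both did so for 14 of 17 sterol enzymes and 4 of 10 fatty acid genes, against 21.9% of all genes. Without replicate 1 of shDis3l2, Hmgcs1 (log2 fold change -1.47, adjusted p = 0.0473) and Cyp51 (-1.24, adjusted p = 0.0492) passed edgeR's test, with 3.31% of all genes called and 2.26% called lower. The median over sterol enzymes was then -1.07, and that over fatty acid genes -0.35. Leaving out shNS replicate 1 instead gave a sterol median of -0.27, with 10 of 17 negative and 0 at an unadjusted p under 0.05. The sterol median was also -0.27 without shDis3l2 replicate 2, with 15 of 17 negative, and -0.32 without shDis3l2 replicate 3, with 13 of 17 negative. It was -0.57 without shNS replicate 2, with 16 of 17 negative, and -0.51 without shNS replicate 3, with 17 of 17 negative. When 1 library was left out, the log2 fold change ran from -1.47 to -0.74 for Hmgcs1 and from -1.24 to -0.43 for Cyp51. Without replicate 1 of both lines, an alternative added after seeing the data, Hmgcs1 (-1.26, adjusted p = 0.0352) and Lss (-0.78, adjusted p = 0.0449) passed edgeR's test, with 5.28% of all genes called and 3.21% called lower. Unadjusted p was under 0.05 for 10 of 17 sterol enzymes and 3 of 10 fatty acid genes in that fit, against 28.9% of all genes.

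Npc1 (chr18:12189692-12236400), which exports cholesterol from late endosomes and lysosomes, had the smallest p of the members. Its level was 48.6, 68.9 and 71.0 CPM in shDis3l2 libraries with doxycycline, against 94.8, 127 and 103 CPM in shNS libraries with doxycycline. The groups did not overlap, and replicate 1 was the lowest of its group in both lines, opposite to the sterol enzymes. The log2 fold change was -0.78 (SE 0.19, adjusted p = 0.0605, edgeR quasi-likelihood test), and adjusted p was 0.00608 by DESeq2. In the additive model of line and doxycycline over all 8 libraries it was called lower (-0.91, adjusted p = 0.0176), with 9.7% of all genes called. Stard4, which carries cholesterol through the cytosol, had 66.8, 39.98 and 36.7 CPM in shDis3l2 libraries and 77.9, 48.4 and 57.2 CPM in shNS libraries, a log2 fold change of -0.35 (SE 0.28).

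Of the regulators, Scap (chr9:110333288-110384950) ran opposite to the enzymes. It had 96.9, 81.9 and 79.6 CPM in shDis3l2 libraries with doxycycline and 55.3, 67.6 and 63.3 CPM in shNS libraries with doxycycline, with no overlap between the groups. The log2 fold change was 0.48 (SE 0.14, adjusted p = 0.0991, edgeR quasi-likelihood test), and with libraries scaled by total alone it was 0.53 (adjusted p = 0.0466, edgeR), where 5.96% of all genes were called. Without doxycycline, Scap stood at 81.3 CPM in shDis3l2 and 76.6 CPM in shNS. Insig2, an anchor of SCAP, had 15.5, 16.4 and 15.8 CPM in shDis3l2 libraries and 21.2, 19.3 and 18.1 CPM in shNS libraries, also without overlap (log2 fold change -0.29, SE 0.13, adjusted p = 0.263, edgeR). Insig1, like Scap, had a positive log2 fold change (0.20, SE 0.25, adjusted p = 0.717, edgeR), in groups that overlapped. That of Insig1 ran from -0.12 to 0.39 when 1 library was left out. The group means of the SREBP genes lay within 1 SD of each other: Srebf1 averaged 101 ± 25.3 CPM in shDis3l2 and 96.9 ± 10.9 CPM in shNS, and Srebf2 averaged 245 ± 60.2 CPM in shDis3l2 and 242 ± 39.3 CPM in shNS (SD, n = 3 each). Groups without overlap were counted for 3 lower members (Npc1, Insig2 and Acly), against 14.6% of all genes, and 1 higher member (Scap), against 13.2%.

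The fatty acid arm held the most negative fold change of all members, that of Lpin1. Over all 6 libraries it also held the most positive one, that of Fads2 (0.53), but without shNS replicate 2 Fads2 was at 0.22 and the regulator Scap at 0.54. Length-scaled means ran from 1.12 CPM per kilobase for Acss2, which makes acetyl-CoA from acetate, to 209 CPM per kilobase for Scd2, a stearoyl-CoA desaturase. Lpin1, a phosphatidate phosphatase, had 11.2, 3.88 and 5.29 CPM in shDis3l2 libraries with doxycycline and 26.5, 19.7 and 7.86 CPM in shNS libraries with doxycycline. Replicate 1 of shDis3l2 lay above replicate 3 of shNS, so the groups overlapped (log2 fold change -1.41, SE 0.55, adjusted p = 0.21, edgeR quasi-likelihood test). Its log2 fold change was -1.97 without shDis3l2 replicate 1 and -1.001 without shNS replicate 1. Acss2 had 7.13, 7.59 and 7.74 CPM in shDis3l2 libraries, against 30.2, 7.35 and 17.3 CPM in shNS libraries, a log2 fold change of -1.29 (SE 0.46, adjusted p = 0.175, edgeR). The shDis3l2 libraries were nearly level, and the spread came from shNS, where replicate 2 was at the shDis3l2 level. Without that replicate the log2 fold change was -1.67 (adjusted p = 0.0101, edgeR), with 6.45% of all genes called, and without shNS replicate 1, the highest library, it was -0.69 (adjusted p = 0.288, edgeR).

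Fads2, the fatty acid desaturase at the entry to polyunsaturated fatty acid synthesis, had the most positive fold change of the arm. It stood at 253, 204 and 194 CPM in shDis3l2 libraries and 221, 79.1 and 151 CPM in shNS libraries (log2 fold change 0.53, SE 0.35, adjusted p = 0.466, edgeR). Its chromosomal neighbour Fads1, another desaturase, had 319, 277 and 280 CPM in shDis3l2 libraries and 305, 180 and 278 CPM in shNS libraries. In both genes replicate 2 of shNS was the lowest library of the 6. Without it the log2 fold change was 0.22 for Fads2 and 0.0033 for Fads1, against 0.20 for Fads1 with it. Of the genes for carbon supply other than Acss2, chain synthesis and elongation, Acly, ATP citrate lyase, had a log2 fold change of -0.21, Acaca, acetyl-CoA carboxylase, of -0.37, Fasn of -0.038 and Elovl6, a fatty acid elongase, of -0.20. Scd2 had 1355, 959 and 955 CPM in shDis3l2 libraries and 1784, 1355 and 1153 CPM in shNS libraries (log2 fold change -0.39, SE 0.23). The related desaturase Scd1 had 110, 65.0 and 74.0 CPM in shDis3l2 libraries, inside the shNS span of 59.4 to 194 CPM.

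**Figure D3:**
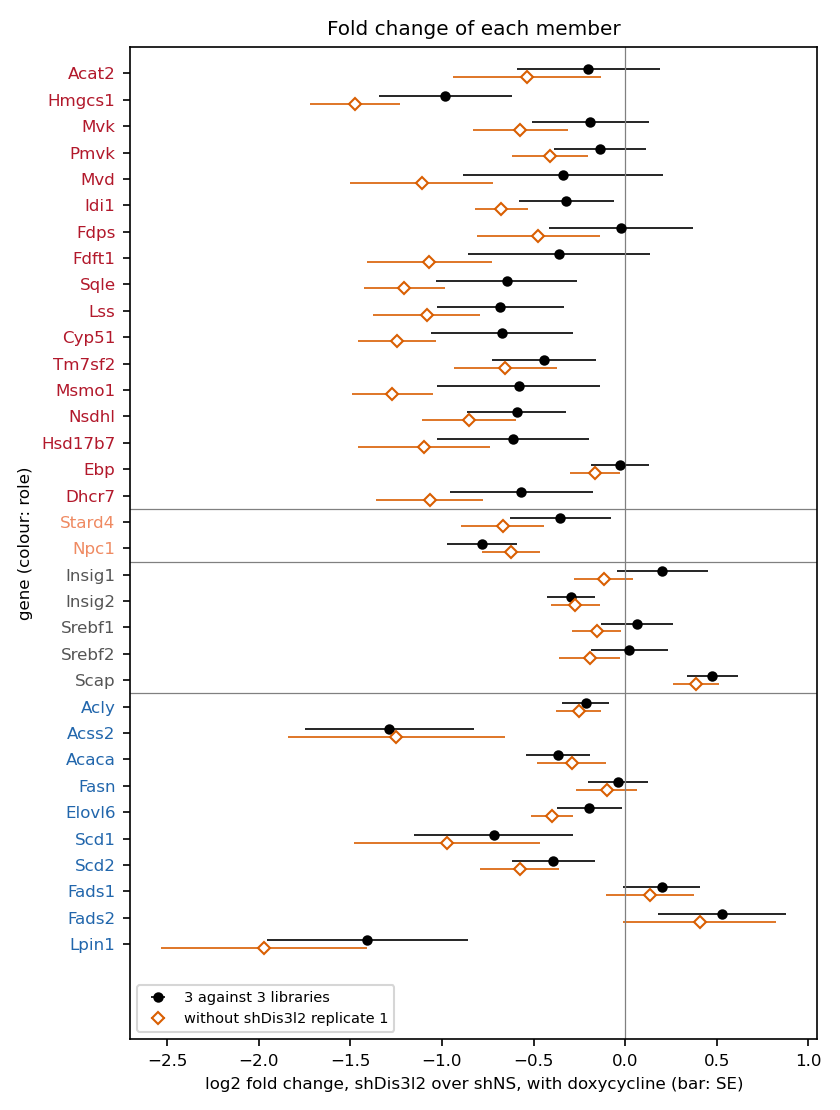
Log2 fold change of each member, shDis3l2 over shNS with doxycycline, from all 6 libraries (black) and without shDis3l2 replicate 1 (orange), with bars of 1 SE and the members grouped by role. All 17 sterol enzymes lie left of 0 in both fits, with medians of -0.44 and -1.07, and fatty acid genes lie on both sides.

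For each library, the members of a role were averaged as log2(CPM + 1) centred on each gene's mean over the 8 libraries. The sterol enzymes stood at 0.46, -0.57 and -0.53 in replicates 1, 2 and 3 of shDis3l2 with doxycycline and at 0.60, 0.081 and 0.11 in replicates 1, 2 and 3 of shNS with doxycycline. The fatty acid genes stood at 0.11, -0.24 and -0.21 in shDis3l2 and at 0.51, 0.12 and -0.020 in shNS. Replicate 1 was the highest library of each line in both arms. The spread among shDis3l2 replicates was wider in the sterol arm (SD 0.58) than in the fatty acid arm (SD 0.20). Among shNS replicates the SD was 0.29 in the sterol arm and 0.27 in the fatty acid arm. The difference of sterol minus fatty acid arm was 0.35, -0.33 and -0.31 in the shDis3l2 libraries, and 0.095, -0.035 and 0.13 in the shNS libraries. With doxycycline it was thus above every shNS library in 1 shDis3l2 library and below every shNS library in the 2 others. Its mean in shDis3l2 minus that in shNS was -0.16 over all 6 doxycycline libraries and -0.37 without replicate 1 of both lines. Without doxycycline, the sterol enzymes stood at -0.34 in shDis3l2 and 0.17 in shNS, and the fatty acid genes at -0.19 in shDis3l2 and -0.063 in shNS. The sterol minus fatty acid difference was -0.14 in untreated shDis3l2 and 0.24 in untreated shNS. No p is given for these averages over chosen genes.

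**Figure D4:**
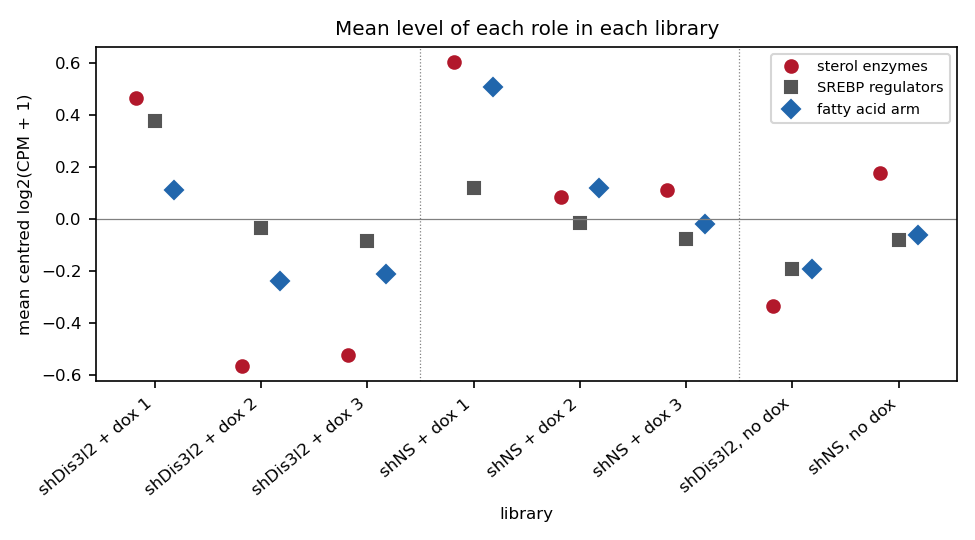
Mean centred log2(CPM + 1) of the sterol enzymes, the SREBP regulators and the fatty acid genes in each library, shDis3l2 left of shNS, with 1 point per role and library. Replicate 1 of shDis3l2 with doxycycline lies at 0.46 in the sterol arm, while replicates 2 and 3 lie at -0.57 and -0.53.

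Without doxycycline there was 1 library per line, so ratios of shDis3l2 to shNS have no replicate check, and their intervals cover counting error only. The ratio was under 1 for 16 of 17 sterol enzymes (median 0.727), the exception being Mvd at 1.14, and for 6 of 10 fatty acid genes (median 0.863). At least 1.5-fold lower levels in untreated shDis3l2 were found for 10 of 34 members, against 15.8% of all genes. These were the enzymes Acat2, Fdps, Fdft1, Lss, Nsdhl and Dhcr7, with Npc1, Insig1, Scd1 and Lpin1. Npc1 had 54.5 CPM in untreated shDis3l2 and 132 CPM in untreated shNS, a ratio of 0.413 (95% interval 0.392 to 0.434). Lpin1 had the lowest ratio, 0.252 (0.208 to 0.305). At least 1.5-fold higher levels were found for Fads2 (ratio 2.47, 2.37 to 2.57), Acss2 (1.70) and Fads1 (1.62), 3 of 34 members against 16.5% of all genes. For these 3, untreated shNS and shNS replicate 2 with doxycycline both lay below shNS replicates 1 and 3. Of the lower members, Npc1 and Scd1 had both above replicates 1 and 3, and Fdft1 had both below. With doxycycline, the log2 fold change of Acss2 was negative (-1.29). In the untreated libraries Dis3l2 itself stood at 28.6 CPM in shDis3l2 and 29.7 CPM in shNS.

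The effect of doxycycline within each line compared 3 libraries with 1, in a fit of all 8 libraries that assumed the lone library to vary like the others. No member passed edgeR's threshold in shDis3l2, in shNS or in the difference between the effects, and neither did any of the 15250 genes tested (0%). At an unadjusted p under 0.05 there was 1 member in shDis3l2 (3.3% of all genes), 2 in shNS (4.24%) and 0 in the difference (3.78%), and DESeq2 called 0 members in each, with 64, 74 and 35 genes called. The member in shDis3l2 was Insig1, an SREBP target as well as a regulator. It had 110, 66.9 and 58.8 CPM in shDis3l2 with doxycycline and 32.2 CPM in untreated shDis3l2 (log2 1.29, SE 0.38, adjusted p = 1, edgeR). In shNS, Insig1 had 76.4, 70.2 and 58.3 CPM with doxycycline, 1 library below the 58.8 CPM of untreated cells. The members in shNS were Scd2 (log2 0.88, SE 0.34) and Acss2 (log2 1.83, SE 0.73), both with an adjusted p of 0.99 in edgeR. Acss2 stood at 5.13 CPM in untreated shNS and at 7.35 CPM in shNS replicate 2 with doxycycline, and without that replicate its doxycycline effect was 2.19 (SE 0.39, adjusted p = 0.0261, edgeR), with 3.59% of all genes called. Replicate 2 and untreated shNS both lay below shNS replicates 1 and 3 for 14 of 34 members, against 21.5% of all genes, and both above for 6, against 21.5%. Among the sterol enzymes both lay below for 7 of 17 and above for 1.

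Other genes of these pathways were taken from further lists, of which 45 of 48 genes could be tested. Of 16 other sterol genes, 1 was called higher and 0 lower, and of 19 tested fatty acid genes none passed in either direction. Of 10 tested genes for oxysterol handling and cholesterol esters, 0 were called higher and 2 lower. Together 3 of 45 passed, a share near the 6.14% of all genes called. At an unadjusted p under 0.05 (edgeR), 6 of the 10 oxysterol and ester genes were lower and 0 higher. Of the 16 sterol genes 2 were higher and 0 lower, and of the 19 fatty acid genes 2 higher and 1 lower, against 20.8% of all genes in either direction. Groups lay lower without overlap for 5 of the 10 (Nceh1, Soat1, Npc2, Abca1 and Abcg1), against 14.6% of all genes. Nceh1, a neutral cholesterol ester hydrolase, had 53.1, 28.9 and 35.9 CPM in shDis3l2 libraries with doxycycline. The shNS libraries with doxycycline had 130, 186 and 204 CPM (log2 fold change -2.14, SE 0.27, adjusted p = 0.0076, edgeR). This call held when any 1 of the 6 libraries was left out, and untreated cells had 30.6 CPM in shDis3l2 and 116 CPM in shNS. Soat1, which makes cholesterol esters, had 218, 230 and 248 CPM in shDis3l2 libraries with doxycycline. The shNS libraries with doxycycline had 377, 415 and 451 CPM (-0.83, SE 0.13, adjusted p = 0.016, edgeR). Untreated cells had 212 CPM of Soat1 in shDis3l2 and 311 CPM in shNS. The Soat1 call was lost without shDis3l2 replicate 2 (adjusted p = 0.11, edgeR) or 3 (0.0711). Lipa, the lysosomal acid lipase that also cleaves cholesterol esters, was named after its values were seen. It had 709, 542 and 576 CPM in shDis3l2 libraries and 392, 495 and 645 CPM in shNS libraries, in groups that overlapped (0.26, SE 0.21, adjusted p = 0.563, edgeR).

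Acat1, the mitochondrial acetoacetyl-CoA thiolase, had 163, 156 and 162 CPM in shDis3l2 libraries with doxycycline. The shNS libraries with doxycycline had 111, 106 and 88.9 CPM (0.66, SE 0.13, adjusted p = 0.034, edgeR). Untreated cells had 148 CPM of Acat1 in shDis3l2 and 98.6 CPM in shNS. Acat1 lies on chromosome 9, where the 79 tested genes within 5 Mb had a median log2 fold change of 0.49 and 84.8% of them were positive. The part of this region in the change of Acat1 was not tested. Its call was lost without any 1 shDis3l2 library or without shNS replicate 2 or 3, at adjusted p of 0.0563 to 0.139. Elovl5, a fatty acid elongase with the smallest p of its list, also lies on chromosome 9 (log2 fold change 0.54, SE 0.20, adjusted p = 0.187, edgeR), with a median of 0.53 over 36 neighbours. Scap, on the same chromosome, had 130 neighbours with a median of -0.098. Abca1, the cholesterol exporter, was chosen after its values were seen. It had 14.5, 29.5 and 54.7 CPM in shDis3l2 libraries and 106, 197 and 129 CPM in shNS libraries, with no overlap (-2.13, SE 0.50, adjusted p = 0.0625, edgeR). Untreated cells had 14.9 CPM of Abca1 in shDis3l2 and 130 CPM in shNS.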

How the data were processed

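Total RNA of 8 RAW264.7 libraries was prepared with a stranded kit after ribosomal RNA removal, per the labels' protocols. Per the submitters' processing notes, the tools were cutadapt, STAR 2.7 and RSEM, and the genome was GRCm38 (mm10). The strand setting and annotation release were not given in the sources used here. Expected counts per gene, deposited by the authors as 1 table without normalization, were rounded to whole numbers. Because RSEM splits reads between similar sequences, levels of close paralogs are estimates, and those of overlapping genes depend on the strand setting. All 55450 identifiers matched GENCODE M21, and 22276 genes had a count.

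The lines were compared over the 6 doxycycline libraries and 13752 genes with edgeR's quasi-likelihood test (R 4.3.3, edgeR 4.0.16), two-sided and robust, after filterByExpr at a minimum count of 10 and TMM scaling, with Benjamini-Hochberg adjustment over all genes and a threshold of 0.05. Doxycycline effects used 8 libraries, 15250 genes and 4 residual degrees of freedom. Length-scaled levels used the union of exons. The fits were tested on simulated data. Alternatives were DESeq2 1.42.0 and its size factors, limma-voom (limma 3.58.1), library size alone, other filters, an additive and an 8-library fit, a replicate block and leaving out each library. Untreated ratios have exact 95% counting intervals. Replicates of a group differed beyond sampling noise.

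Members and lists were chosen with earlier results of these data known. Full values are given for members that passed any test or had the largest or smallest fold change of their role, and the other members with full values were picked after these were seen. In the other lists, genes past the threshold are named, or the gene with the smallest p where none passed.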

Additional observations from a re-analysis of the deposited data

How the results depend on the processing

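Other settings moved these counts. The 845 genes called became 1748 by DESeq2, 421 under the replicate block, 1480 in the additive fit and 203 to 1157 when libraries were left out. Members called higher, 0 at first, became 1 with library size alone and 1 by DESeq2. Members called lower, 0 at first, became 4 by DESeq2, 1 in the additive fit and 0 to 2 when libraries were left out, including 2 without replicate 1 of both lines, which was added after seeing the data. The 3 other pathway genes called became 6 by DESeq2, 7 in the additive fit, 1 under the block and 1 to 3 when libraries were left out. Members called for doxycycline in shNS were 0 to 1 when libraries were left out.

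Signs turned for Ebp (0.015) and Fasn (0.017) with library size alone, for Fdps (0.0084) and Ebp (0.0032) with no filter, for Insig1 (-0.060) in the additive fit, and for Insig1 (-0.033), Srebf1 (-0.066) and Srebf2 (-0.061) without replicate 1 of both lines. When 1 library was left out, log2 fold changes that turned ran from -0.54 to 0.25 for Acat2, -0.57 to 0.069 for Mvk, -0.41 to 0.055 for Pmvk, -1.11 to 0.12 for Mvd, -0.48 to 0.31 for Fdps, -1.07 to 0.012 for Fdft1, -0.16 to 0.066 for Ebp, -0.12 to 0.39 for Insig1, -0.16 to 0.19 for Srebf1, -0.19 to 0.19 for Srebf2 and -0.22 to 0.084 for Fasn. The Dis3l2 call was also lost in the additive fit (edgeR adjusted p = 0.0537), under the replicate block and without replicate 1 of both lines. The cause was not tested.

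Across all genes tested, same-numbered replicates did not deviate together (correlations -0.125, 0.019 and -0.022), although replicate 1 was the highest in both lines for 14 of 17 sterol enzymes. The labels state no link between same-numbered replicates, and correlations over all genes cannot decide whether there was one for the sterol enzymes. The replicate block is therefore given as an alternative only. Under the block 7 of 17 sterol enzymes had an unadjusted p under 0.05 in edgeR, where 18.1% of all genes did. Without the block it was 1 of 17, where 20.8% of all genes did. Under the replicate block 0 members were called, with 3.06% of all genes called. No paired analysis was possible for the doxycycline effects because the untreated libraries carry no shared numbers.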
